A study of Mus musculus with 42 samples.

Results

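Cytochrome P450 enzymes were followed in the RNA of mouse liver, before and after ribosomes of a tagged cell lineage were pulled down. The 100 members were the protein-coding genes whose symbol begins with Cyp and a digit, out of 21697 protein-coding genes and 47729 genes in the files. They were grouped by general knowledge of where each enzyme is made: 55 hepatocyte P450s, 4 leukocyte P450s (Cyp4f18, Cyp1b1, Cyp11a1 and Cyp27b1), 9 broadly expressed P450s and 32 others. Reads were counted on 93 members, on 36 of them in all 42 libraries, and 7 members (Cyp11b1, Cyp19a1, Cyp2j11, Cyp2j12, Cyp4a29, Cyp4a30b and Cyp4f40) had no read in any library. The Cyp2 family gave 49 members, Cyp4 gave 20 and Cyp3 gave 9, and the remaining families gave 1 to 3 each.

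P450s are heme enzymes that insert an oxygen atom into fats, steroids, vitamins and foreign compounds. Most of them sit in the endoplasmic reticulum and take their electrons from P450 oxidoreductase (Por), and a smaller mitochondrial set takes them from ferredoxin. Hepatocytes carry the bulk of the body's P450, with families 1 to 3 turned mainly to drugs and toxins and families 7, 8, 27 and 39 to bile acid synthesis. A few P450s are instead made in white blood cells, among them Cyp4f18, which inactivates the neutrophil attractant leukotriene B4.

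The promoters of 4 members on which the results turn are shown here, from 250 bases before to 50 bases after the RefSeq start on GRCm38.p6, because the first pair were among the hepatocyte P450s and the second pair were the members most often higher after pull-down. Capitals mark a TATA box (TATAAA), an HNF4 site (CAAAGTCCA), a PU.1 site (GAGGAAGT) or the core of an ETS site (AGGAAG), the last of which lies within the PU.1 site, on either strand (GAGGAAGT and AGGAAG read ACTTCCTC and CTTCCT on the other strand).
Cyp2e1 (chr7:140763569-140763868, plus strand): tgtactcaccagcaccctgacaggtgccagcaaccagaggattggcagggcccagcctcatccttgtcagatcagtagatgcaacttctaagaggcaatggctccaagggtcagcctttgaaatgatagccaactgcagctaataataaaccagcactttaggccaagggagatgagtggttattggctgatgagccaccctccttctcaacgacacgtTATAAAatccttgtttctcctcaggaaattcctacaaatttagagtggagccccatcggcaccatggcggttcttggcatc
Cyp8b1 (chr9:121916256-121916555, minus strand): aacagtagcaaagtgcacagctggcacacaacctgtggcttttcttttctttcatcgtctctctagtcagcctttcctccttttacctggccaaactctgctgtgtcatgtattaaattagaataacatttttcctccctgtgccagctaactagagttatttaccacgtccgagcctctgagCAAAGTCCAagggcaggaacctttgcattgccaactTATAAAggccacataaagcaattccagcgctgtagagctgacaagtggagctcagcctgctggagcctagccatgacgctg
Cyp4f18 (chr8:72009577-72009876, minus strand): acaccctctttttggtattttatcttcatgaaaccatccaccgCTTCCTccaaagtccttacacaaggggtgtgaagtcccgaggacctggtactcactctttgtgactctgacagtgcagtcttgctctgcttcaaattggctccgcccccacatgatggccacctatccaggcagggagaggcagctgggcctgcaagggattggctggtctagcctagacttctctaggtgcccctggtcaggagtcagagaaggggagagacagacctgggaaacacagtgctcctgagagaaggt
Cyp4f16 (chr17:32536307-32536606, plus strand): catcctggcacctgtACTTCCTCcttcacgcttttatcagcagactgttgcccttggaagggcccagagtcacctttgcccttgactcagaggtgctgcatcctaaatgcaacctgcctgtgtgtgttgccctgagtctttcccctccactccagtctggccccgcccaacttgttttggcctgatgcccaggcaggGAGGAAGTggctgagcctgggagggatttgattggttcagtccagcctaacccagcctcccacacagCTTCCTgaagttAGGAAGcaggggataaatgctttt
Promoters were found for 77 members. TATAAA stood in those of 27 of 41 hepatocyte P450s, against 15.7% of all 27025 genes with a promoter, and CAAAGTCCA in 10 of 41, against 0.555%. GAGGAAGT was found in 4 of 41 hepatocyte P450s and 3.69% of all genes. AGGAAG was found in 17 of 41 hepatocyte P450s, in 4 of 4 leukocyte P450s and in 38.4% of all genes. Of the 4 leukocyte P450s, 0 held TATAAA, CAAAGTCCA or GAGGAAGT, and 1 held the C/EBP motif. A C/EBP motif (TTGCNNAA) was found in 11 of 41 hepatocyte P450s and 12.2% of all genes, and a palindromic HNF1 motif in 0 of 41. These matches describe the letters of these windows.

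All RNA came from livers of 3 untreated Gfi1Cre/+;Rpl22HA/HA mice, aged P30 by the growth and extract protocols and P1 by the stage label. The methods of the study give 30 days for the mice whose livers gave the RNA, and P1 for livers used in immunostaining. In these mice the ribosomal protein Rpl22 carries an HA tag in cells that have, or whose forebears had, Cre made from the Gfi1 gene, a blood transcription factor. Total RNA of the homogenate (input) was compared with RNA pulled down by an HA antibody (IP), and no mouse without the tag or Cre was among the samples. Each fraction of each mouse was prepared with 7 protocols: NEB, NuG (NuGEN), SMTer (SMARTer Stranded) and SMTseq4 (SMART-Seq v4) from 4 ng of RNA, SMTseq0.25 from 0.25 ng, and TruSeq from 4 ng (Tru4) and 70 ng (Tru70). The protocols measured aliquots of the same RNA, so agreement between them adds no further mice. Total exon counts ranged from 464199 to 45466334 per library, with the SMTer libraries lowest. In an IP of bulk tissue, fewer cells of a type and less RNA per cell cannot be told apart.

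Input and IP of mouse 3 were exchanged against their labels in Tru4, NuG, SMTer and NEB, 8 libraries in all, as the published feature counts place them. In Tru4, Alb, the serum albumin gene of hepatocytes, stood at 131988 and 146382 CPM (counts scaled to a common library total) in inputs 1 and 2, at 15080 and 21450 CPM in IPs 1 and 2, at 22133 CPM in the library labelled input 3 and at 136326 CPM in the library labelled IP 3. Clec4f, a Kupffer cell marker, ran the other way in Tru4, at 8193 CPM in the library labelled input 3 and 154 CPM in that labelled IP 3. With the fractions as labelled, 0 members passed the test in NEB, NuG, SMTer or Tru4. Results are therefore led by Tru70, SMTseq4 and SMTseq0.25, where no library was exchanged. In Tru70, 12 of 12 hepatocyte markers were lower in IP (edgeR, adjusted p under 0.05), and 7 of 7 Kupffer cell, 7 of 7 lymphocyte and 5 of 6 erythroid markers were higher. Of all genes tested in Tru70, 16.7% were lower and 18.1% higher. Lymphocyte markers were low in the inputs, and any tested through IP reads alone could only be called higher. Of the markers of other liver cells, 6 of 6 for stellate cells, 3 of 6 for endothelial cells and 1 of 4 for cholangiocytes were lower in Tru70. Endothelial markers went both ways elsewhere, with 2 of 6 higher and 4 lower in SMTseq4 and 2 higher and 1 lower in SMTseq0.25. Of all genes tested, 30.4% were higher and 28.7% lower in SMTseq4, and 19.8% and 17.1% in SMTseq0.25. Gfi1 itself was at 0 CPM in every Tru70 input and at 0.968, 0.537 and 0 CPM in the IPs, and Rpl22 stood between 73.5 and 150 CPM in both fractions.

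P450 transcripts were much scarcer in IP. The 100 genes together took 2.77% ± 0.475 (SD, n = 3) of protein-coding reads in the Tru70 inputs and 0.729% ± 0.0882 in the IPs, a ratio of 3.80. In SMTseq4 the shares were 3.598% ± 0.775 and 0.726% ± 0.140, and in SMTseq0.25 they were 3.56% ± 0.722 and 0.708% ± 0.155. The lowest input lay above the highest IP in each of the 7 protocols, and the exact two-sided permutation test gave p = 0.1 each time, the smallest value that 3 against 3 libraries allow. Tru4, NEB and NuG had ratios of 3.61, 3.37 and 3.26, and SMTer, measured in RPKM (reads per kilobase and depth), had 3.44. In RPKM the NuG fractions stood much closer, at 0.507% to 0.657% in the inputs and 0.418% to 0.452% in the IPs. Cyp2e1, which oxidises ethanol, took between 12.1% and 22.5% of the P450 reads of every library of the 6 protocols with usable counts, inputs and IPs alike.

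**Figure D1:**
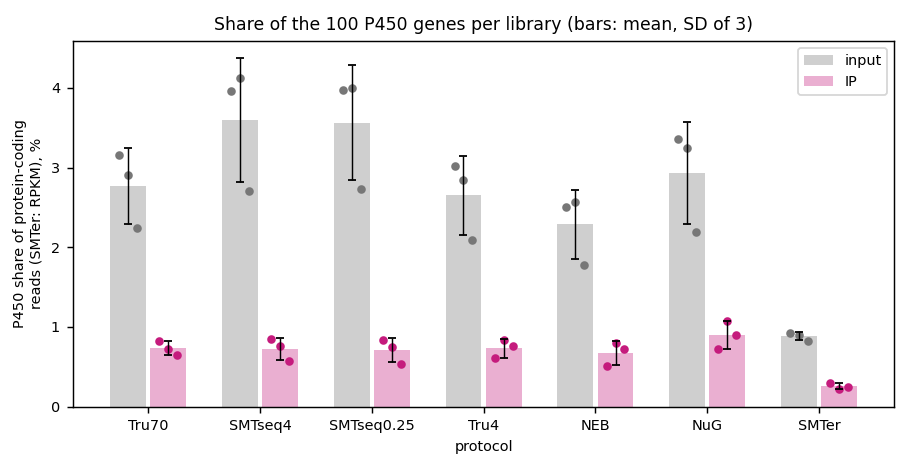
Share of protein-coding reads taken by the 100 P450 genes, in percent, for input (grey) and IP (pink) of each protocol; SMTer is given as a share of RPKM. Bars are means with SD, points are the 3 libraries, and every IP point lies below every input point of its protocol.

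Gene by gene, 46 of 71 members tested in Tru70 fell in IP and 2 rose (edgeR, adjusted p under 0.05), where 16.7% of all 14707 genes tested fell and 18.1% rose. The median log2 change of the members was -2.16, against -0.03 over all genes tested. In SMTseq4, 59 of 65 members fell and 3 rose, with 28.7% and 30.4% of all genes, and in SMTseq0.25, 50 of 65 fell and 1 rose, with 17.1% and 19.8% of all genes. Among the protocols with exchanged libraries, 54 of 74 members fell in Tru4 (24.2% of all genes), 30 of 60 in NEB (5.34%) and 50 of 60 in NuG (20.9%). Members that rose numbered 4 in Tru4 (25.9% of all genes), 0 in NEB (5.82%) and 1 in NuG (24.0%). With library totals only, 25 fell and 8 rose in NuG, and 13 fell in NEB without mouse 2 and 14 without mouse 3. For SMTer, where limma was run on log2(RPKM + 1), 23 of 39 members fell (6.99% of all genes) and 0 rose (13.2%). That count moved widely, to 36 with the mouse as a block, 9 with edgeR on exon counts, 0 with no filter on low RPKM, 0 without mouse 1 and 13 without mouse 3. No member rose in one of the 6 protocols with counts and fell in another. Among those that rose, Cyp4f18, Cyp1b1 and Cyp11a1 were tested only through their IP reads, so their calls could only point up.

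The members that fell were mainly the hepatocyte P450s. In Tru70, 41 of 52 tested fell and 0 rose, with a median of -2.31, where 16.7% of all genes tested fell and 18.1% rose. In SMTseq4, 49 of 49 fell (28.7% of all genes), and in SMTseq0.25, 45 of 50 (17.1%). Of the 55, 30 fell in each of the 6 protocols with counts, and 18 of those also fell in SMTer. The share of all genes that fell in every protocol was not computed, and the protocols measured the same RNA. The 12 hepatocyte markers had a median of -2.48 in Tru70, close to that of the P450s.

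**Figure D2:**
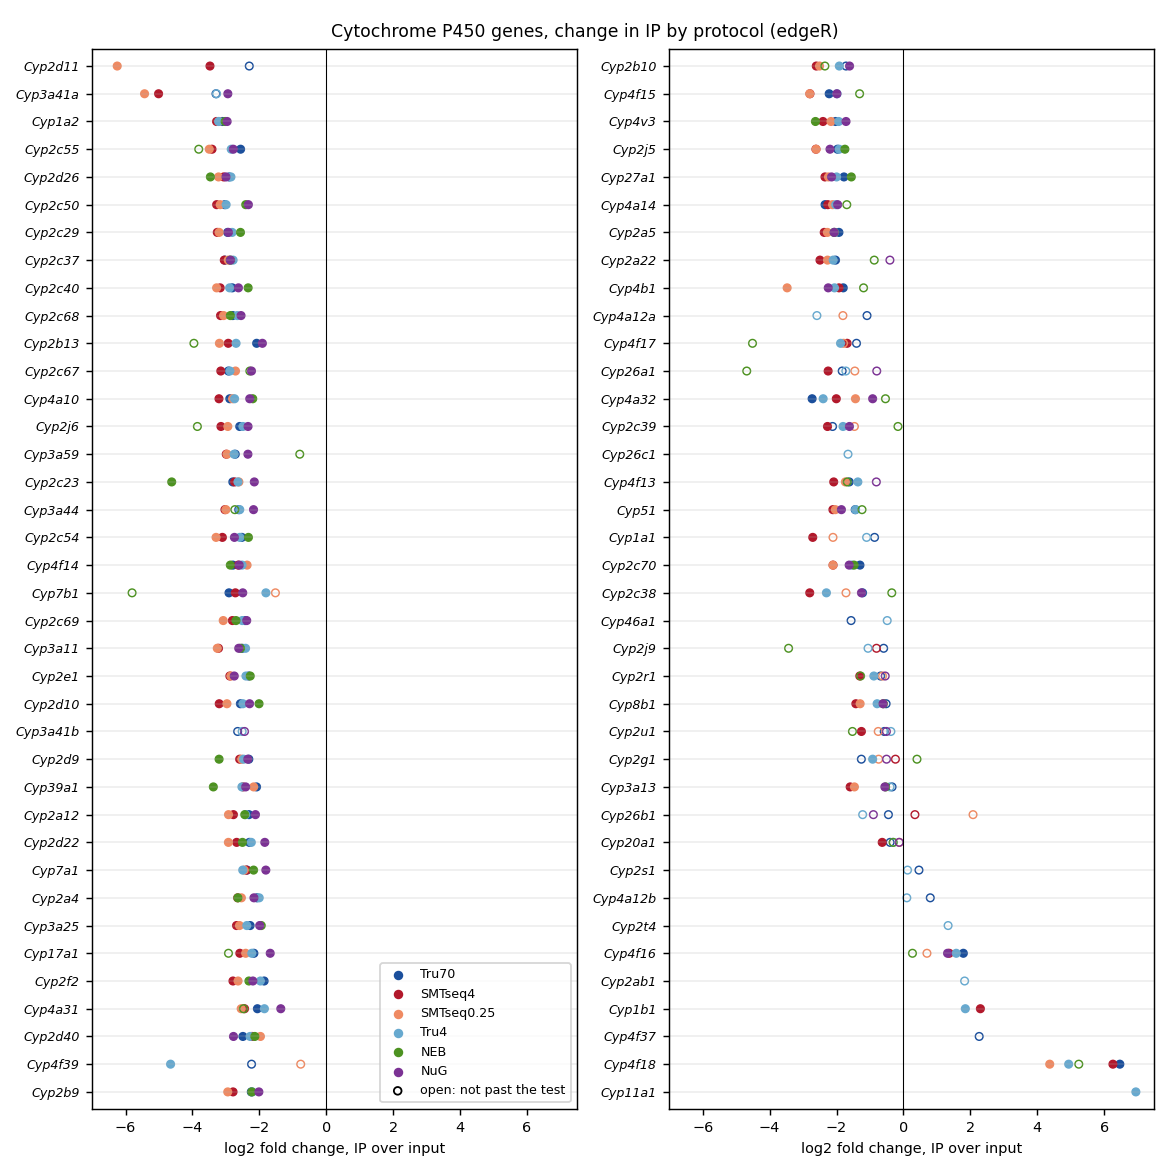
Log2 fold change of IP over input (x axis) for the 76 P450 genes tested by edgeR in at least 1 of 6 protocols, ordered by their median from the top of the left panel to the bottom of the right. Colours are protocols and filled points passed at an adjusted p under 0.05. For 40 of 76 genes the median lies between -3 and -2, and filled points above 0 belong to Cyp4f16, Cyp1b1, Cyp4f18 and Cyp11a1. Of these, Cyp1b1, Cyp4f18 and Cyp11a1 reached the test only through IP reads, so their calls had to point up.

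Among the enzymes of drug and toxin metabolism, Cyp2e1 was the most abundant P450 per kilobase of transcript in both fractions of Tru70. Its Tru70 levels were 5474, 4622 and 3398 CPM in the inputs of mice 1 to 3 and 1642, 1057 and 820 CPM in the IPs. The IPs of Cyp2e1 lay below all inputs and kept the order of the mice. Cyp2e1 fell by 2.32 ± 0.345 (SE) on the log2 scale (edgeR, adjusted p = 0.000834), 4.99-fold, and its changes in the other 5 protocols with counts ran from -2.88 to -2.27.

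Cyp1a2, which metabolises caffeine, was among the members lowered most. Its Tru70 inputs held 1936, 1854 and 1731 CPM and its IPs 214, 372 and 282 CPM. The spread between mice was small against the gap, and Cyp1a2 fell by 3.11 ± 0.219 (edgeR, adjusted p = 1.51e-05), with changes of -2.96 to -3.28 across the 6 protocols. Cyp3a11, the main steroid and drug hydroxylase of its subfamily, held 2977, 2860 and 1979 CPM in the Tru70 inputs and 694, 621 and 497 CPM in the IPs. Cyp3a11 fell, with log2 changes of -2.51 in Tru70, -3.22 in SMTseq4 and -3.26 in SMTseq0.25.

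The Cyp2c genes, which act on arachidonic acid and many drugs, fell together. In Tru70, 11 of 13 tested fell, with a median of -2.79, and in SMTseq4 13 of 13 fell, with a median of -3.11. Of all genes tested, 16.7% fell in Tru70 and 28.7% in SMTseq4. Cyp2c50 had 1352, 1166 and 657 CPM in the Tru70 inputs and 188, 213 and 110 CPM in the IPs, a log2 change of -3.04 (edgeR, adjusted p = 0.000230). Cyp2d26 and Cyp2d10 fell, at -2.90 and -2.57 in Tru70, and 5 of 6 tested Cyp2d genes fell there. Of the Cyp2a genes, 4 of 4 fell in Tru70 with a median of -2.05, among them Cyp2a12 (-2.31), Cyp2a4 (-2.07) and Cyp2a5 (-1.93). Cyp2f2, a periportal enzyme that activates naphthalene, fell as well (-1.86).

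Members from either end of the liver lobule fell. Of the pericentral P450s, made around the central vein, 10 of 10 fell in Tru70 with a median of -2.52 and a range of -3.11 to -1.78. There, 16.7% of all genes tested fell. The 2 periportal P450s listed, Cyp2f2 and Cyp17a1, fell, at -1.86 and -2.16. The difference between both groups was not tested.

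Bile acid and sterol P450s were lower as well, with an exception. In Tru70, 5 of 7 tested fell, and in SMTseq4 6 of 6, against 16.7% and 28.7% of all genes tested. Cyp7a1, the rate-limiting enzyme of bile acid synthesis, held 86.1, 166 and 145 CPM in the Tru70 inputs and 14.9, 30.3 and 62.3 CPM in the IPs. The fractions of Cyp7a1 did not overlap, and it fell by 2.37 ± 0.442 in Tru70 (edgeR, adjusted p = 0.00291) and stood at -2.38 in SMTseq4 and -2.45 in SMTseq0.25, where it fell too. Cyp27a1, the mitochondrial sterol 27-hydroxylase, fell in Tru70, at -1.78, as did the oxysterol hydroxylases Cyp39a1 (-2.08) and Cyp7b1 (-2.91). Cyp51, the lanosterol demethylase of cholesterol synthesis, which most cells make, fell in Tru70 (-1.44) and SMTseq4 (-2.11).

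Cyp8b1, the sterol 12-alpha-hydroxylase that sets the make-up of bile acids, stood apart from the other abundant members. Its Tru70 levels were 389, 429 and 663 CPM in the inputs and 401, 398 and 609 CPM in the IPs. The fractions overlapped, and the log2 change of Cyp8b1 was -0.52 ± 0.260 (edgeR, adjusted p = 0.162). In SMTseq4 Cyp8b1 held 432, 568 and 805 CPM in the inputs and 193, 355 and 461 CPM in the IPs. The highest IP still lay above the lowest input there, and Cyp8b1 fell by 1.42 (edgeR, adjusted p = 0.00263). It also fell in SMTseq0.25 (-1.30), Tru4 (-0.79) and NuG (-0.61), and did not pass in NEB (-0.60) or SMTer (-0.55). Per kilobase of transcript, Cyp8b1 ranked 14 of the members in the Tru70 inputs and 2 in the IPs, behind Cyp2e1.

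Cyp3a13, another Cyp3a enzyme, was lowered as little. It held 85.7, 88.9 and 57.8 CPM in the Tru70 inputs and 67.9, 102 and 76.4 CPM in the IPs. The fractions of Cyp3a13 overlapped, and its change was -0.34 ± 0.226 (edgeR, adjusted p = 0.291) in Tru70, against -1.59 in SMTseq4 and -1.47 in SMTseq0.25, where it fell. The change of Cyp3a13 in SMTseq4 differed from that in Tru70 by -1.19 ± 0.394 on the log2 scale (edgeR interaction, adjusted p = 0.231), and with the mouse as a block this difference and that of SMTseq0.25 passed. The sign of these small changes rests on scaling: with library totals alone, all tested genes shifted up by 0.43 in Tru70 and 1.58 in NuG, and Cyp3a13 stood at 0.088 in Tru70 and 1.01 in NuG, and Cyp8b1 at 0.98 in NuG.

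**Figure D3:**
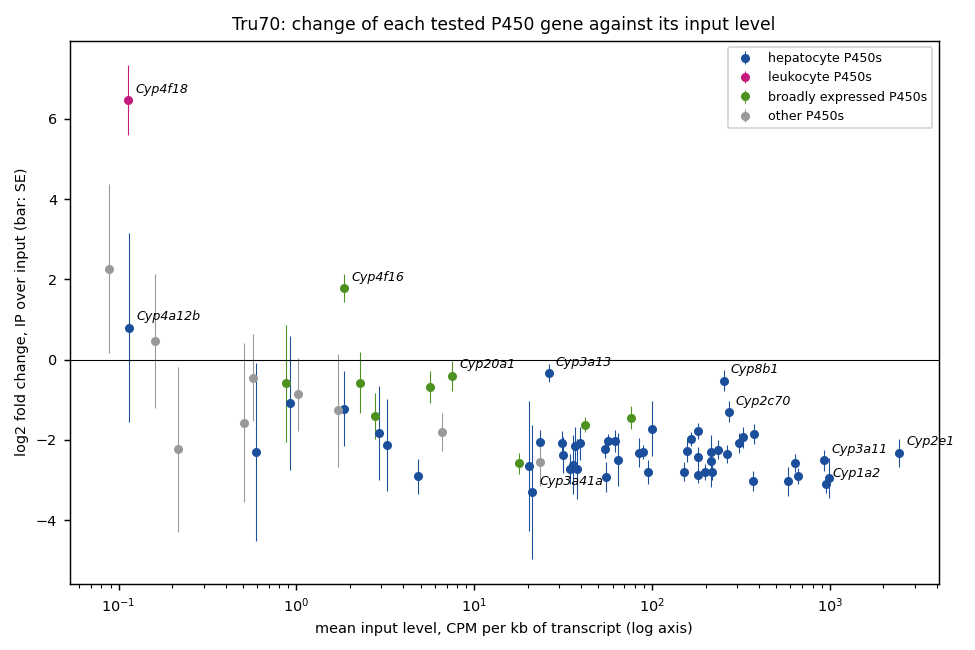
Log2 fold change of IP over input in Tru70 with its SE (y axis) against the mean input level in CPM per kilobase of the longest transcript (log x axis), for P450 genes with input reads, coloured by group. Of 52 hepatocyte P450s tested, 36 lie between -3 and -2, Cyp8b1 lies at -0.52 and Cyp3a13 at -0.34, and Cyp4f16 and Cyp4f18 lie above 0.

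The one hepatocyte P450 with a positive change in Tru70, Cyp4a12b, an omega-hydroxylase of fatty acids, rested on few reads, with 10, 0 and 14 in the inputs and 0, 60 and 0 in the IPs. Its change of 0.80 did not pass (edgeR, adjusted p = 0.841), and it was -6.83 without mouse 2. At the other end, Cyp3a41a had the most negative change in Tru70, -3.30 ± 1.67, without passing (edgeR, adjusted p = 0.167). Of its transcript, 97.3% of 60-base windows also occur in another gene, mostly Cyp3a41b, so reads of the pair could be split or lost in counting. The same held for 92.5% of Cyp3a41b, 65.4% of Cyp2c40 and 50.1% of Cyp2c69, whereas 36 members shared no window.

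Family 4, whose members hydroxylate fatty acids and leukotrienes at the chain end, mostly fell. In Tru70, 9 of 16 tested fell and 2 rose, against 16.7% and 18.1% of all genes tested. In SMTseq4, 10 of 12 fell and 2 rose, against 28.7% and 30.4% of all genes. The 2 that rose were Cyp4f16 and Cyp4f18, and Cyp4f18 was tested only through its IP reads. Cyp4a14, a peroxisome-proliferator target, fell by 2.34 in Tru70, with 680, 792 and 499 CPM in the inputs and 165, 198 and 156 CPM in the IPs. Within the Cyp4f genes on chromosome 17, Cyp4f14 (-2.79) and Cyp4f13 (-1.62) fell in Tru70. Their neighbour Cyp4f16 (chr17:32536558-32551798, GRCm38, plus strand) rose.

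Cyp4f16 held 4.50, 3.31 and 4.64 CPM in the Tru70 inputs and 17.02, 17.3 and 24.0 CPM in the IPs. Every IP lay above every input, and Cyp4f16 rose by 1.79 ± 0.355 on the log2 scale (edgeR, adjusted p = 0.00405), 3.46-fold. It also rose in SMTseq4 (1.37), Tru4 (1.58) and NuG (1.32). In SMTseq0.25 the inputs held 6.72, 7.15 and 4.84 CPM and the IPs 11.95, 12.8 and 17.8 CPM, and the change of 0.70 did not pass (edgeR, adjusted p = 0.198). NEB counted 0 reads of Cyp4f16 in input 2 and in IP 1 but 16.7 and 23.2 CPM in input 3 and IP 2, and its change was 0.27. Of the 60-base windows of Cyp4f16, 21.8% occur in another gene, mostly Cyp4f37.

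Cyp4f18 (chr8:71988482-72009626, GRCm38, minus strand) had the clearest rise. It held 0.310, 0.266 and 0 CPM in the Tru70 inputs, from 8, 9 and 0 reads, and 12.7, 28.7 and 28.4 CPM in the IPs, from 353, 856 and 885 reads. All IPs of Cyp4f18 lay far above all inputs. The edgeR log2 change of Cyp4f18 was 6.47 ± 0.867 in Tru70, 6.26 in SMTseq4, 4.37 in SMTseq0.25 and 4.94 in Tru4, each past the test. Cyp4f18 reached the test only through its IP reads, so these calls could only point up and add no support. Pooled over the 3 mice, IP over input came to 127 in Tru70, 122.5 in SMTseq4, 29.2 in SMTseq0.25 and 42.7 in Tru4. In NEB the change of 5.24 did not pass (edgeR, adjusted p = 0.168), with 44.5, 16.9 and 21.96 CPM in the IPs and 1.61 CPM in input 3. NuG counted 2 reads of Cyp4f18 over its inputs and 38 over its IPs, and left it untested. Cyp4f18 shares no 60-base window with another gene, and 181 of its exonic bases lie opposite Zfp961, from which its reads could not be told apart without strand.

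**Figure D4:**
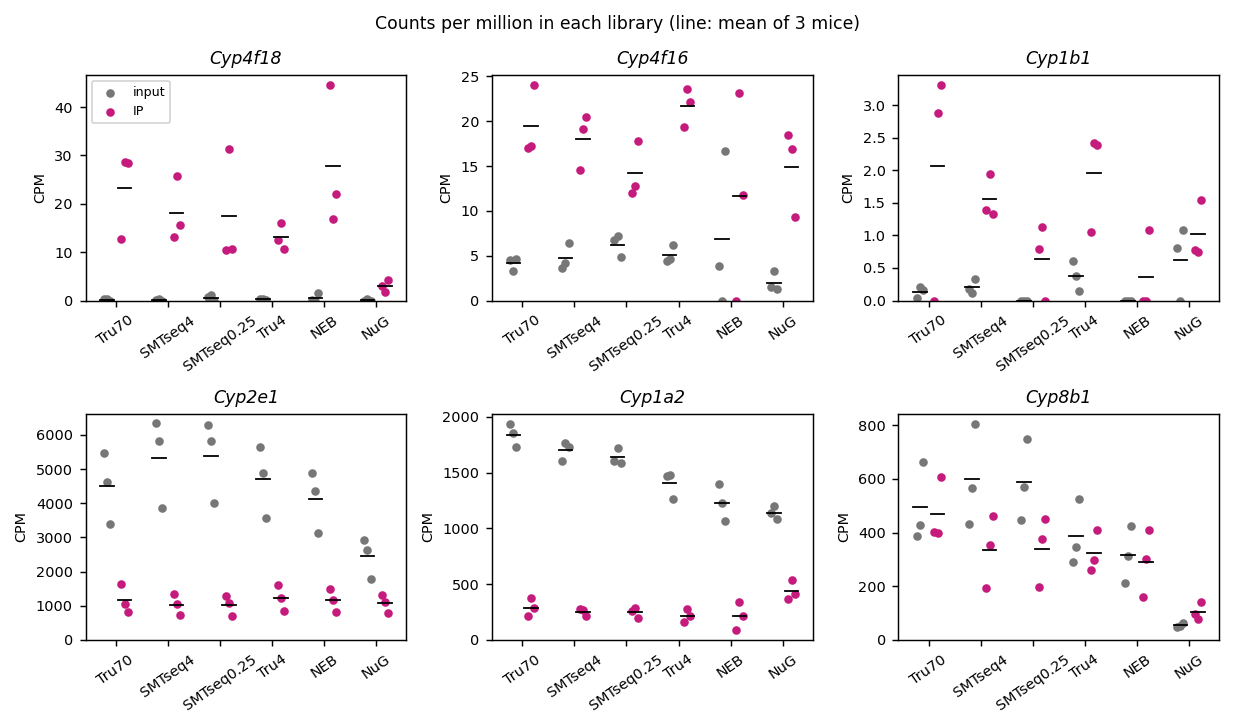
CPM of Cyp4f18, Cyp4f16, Cyp1b1, Cyp2e1, Cyp1a2 and Cyp8b1 in each library of 6 protocols, input in grey and IP in pink, with lines at the mean of 3 mice. Cyp4f18 is near 0 in every input and higher in every IP of its protocol, Cyp2e1 and Cyp1a2 are lower in the IPs, and Cyp8b1 overlaps in Tru70.

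Cyp4f18, Cyp1b1 and Cyp11a1 reached the tests only through their IP reads, so that their calls had to point up and the reads themselves carry the comparison. The other leukocyte P450s were at the edge of detection. Cyp1b1, which oxidises estrogens and aromatic hydrocarbons and is made in monocytes among other cells, held 0.170, 0.122 and 0.331 CPM in the SMTseq4 inputs and 1.39, 1.94 and 1.33 CPM in the IPs. It rose by 2.30 in SMTseq4 and by 1.85 in Tru4 (edgeR, adjusted p = 0.00485 and 0.0403), both without overlap. In Tru70 Cyp1b1 was not tested, with 0 reads in IP 1 but 2.89 and 3.31 CPM in IPs 2 and 3. In SMTseq0.25 and NEB it had no input read, and its pooled IP level was at least 15.2-fold and 7.20-fold above the level of 3 counts over the inputs, with all 18 NEB reads in IP 3. In NuG the fractions of Cyp1b1 overlapped, with 12 input and 13 IP reads in all, a pooled ratio of 1.63.

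Cyp11a1, the side-chain cleavage enzyme that starts steroid synthesis, was tested in Tru4 alone, with 0 input reads and 13, 15 and 15 IP reads. All 3 IPs held it and no input did. Its pooled IP level was at least 19.3-fold above the level of 3 counts over the inputs in Tru4 and at least 11.4-fold above it in Tru70 (33 IP reads). In NEB 18 of 18 reads of Cyp11a1 came from IP 3. Cyp27b1, which activates vitamin D, had at most 10 reads in a fraction of any protocol with counts, all 10 in Tru70 input 3, and was nowhere tested.

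Markers of several blood lineages rose beside these genes. In Tru70 the summed level of 7 Kupffer cell markers was 289 to 327 CPM in the inputs and 11432 to 17424 CPM in the IPs, that of 7 neutrophil markers 1.86 to 3.86 and 98.1 to 208 CPM, that of 7 lymphocyte markers 2.40 to 4.23 and 211 to 251 CPM, and that of 6 erythroid markers 1557 to 2509 and 129457 to 225801 CPM. Of 7 neutrophil markers, 6 were tested and 3 rose in Tru70, and in SMTseq4 6 of 6 rose, against 18.1% and 30.4% of all genes. Neutrophil and lymphocyte markers were low in the inputs, and any tested through IP reads alone could only be called higher. Mast cell markers, summed over 5 genes, ranged from 4.85 to 9.44 CPM in the inputs and from 1.61 to 13.96 CPM in the IPs, and 0 of 1 tested rose in Tru70. In Tru4, 1 of 2 tested rose, at a log2 change of 7.77, against 25.9% of all genes. That marker too could only be called higher if tested through IP reads alone. In SMTseq4, SMTseq0.25, NEB and NuG, 0 of 1 tested rose. Which of these cells carried Cyp4f18, Cyp4f16, Cyp1b1 or Cyp11a1 was not tested.

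Of the broadly expressed P450s, only Cyp4f16 rose in any protocol. In Tru70, 3 of 9 fell and 1 rose, against 16.7% and 18.1% of all genes tested. In SMTseq4, 7 of 9 fell and 1 rose, against 28.7% and 30.4% of all genes. Cyp20a1, an orphan P450, held 16.6, 14.5 and 19.1 CPM in the Tru70 inputs and 8.03, 22.6 and 22.2 CPM in the IPs. The Tru70 fractions of Cyp20a1 overlapped. Its change was -0.40 in Tru70, -0.64 in SMTseq4 and -0.12 in SMTseq0.25, and it fell in SMTseq4 alone. Cyp2r1, the vitamin D 25-hydroxylase, was at -0.68 in Tru70 and -0.63 in SMTseq0.25 without passing, and fell in SMTseq4 (-1.31). In NuG every IP of Cyp20a1 and of Cyp2r1 lay above every input in CPM, as for 47.0% of all genes with reads. Their edgeR changes in NuG were -0.13 and -0.55 and did not pass, so the sign there rests on scaling.

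Enzymes of retinoid, vitamin D and steroid hormone turnover were low apart from Cyp17a1. Cyp26a1, which clears retinoic acid, held 4.15, 9.97 and 1.46 CPM in the Tru70 inputs and 4.37, 0.738 and 0.225 CPM in the IPs, and passed in SMTseq4 (-2.25) but not in Tru70 (-1.83). Cyp17a1, the steroid 17-alpha-hydroxylase, held 72.3, 56.8 and 137 CPM in the Tru70 inputs and 17.6, 14.2 and 50.8 CPM in the IPs, and fell by 2.16. Cyp24a1, Cyp11b2, Cyp21a1 and Cyp26c1 were tested in none of Tru70, SMTseq4 and SMTseq0.25.

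The partners of the enzymes moved in the same direction. Of 15 genes for electron donors and heme synthesis, 10 fell in Tru70, 14 in SMTseq4 and 13 in SMTseq0.25, and none rose in these 3 protocols (18.1%, 30.4% and 19.8% of all genes tested rose). In the same order, 16.7%, 28.7% and 17.1% of all genes tested fell. Por, which passes electrons to all microsomal P450s, held 361, 530 and 329 CPM in the Tru70 inputs and 65.6, 122 and 79.3 CPM in the IPs, and fell by 2.63 (edgeR, adjusted p = 0.000120). Cyb5a, cytochrome b5, and Alas1, the first enzyme of heme synthesis, fell in Tru70 as well, at -1.92 and -1.66. Fech, the last step of heme synthesis, which red cell precursors also use, was at -0.26 in Tru70, -0.36 in SMTseq4 and -0.14 in SMTseq0.25 and passed in none of the 7 protocols.

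Some regulators of P450 genes fell as well. In Tru70, 9 of 17 fell and 2 rose, against 16.7% and 18.1% of all genes tested. In SMTseq4, 8 fell and 2 rose, against 28.7% and 30.4% of all genes. The xenobiotic receptors Nr1i3 (CAR) and Nr1i2 (PXR) fell in Tru70, at -3.77 and -1.55, and so did the fatty acid receptor Ppara (-2.75) and Hnf4a, a hepatocyte nuclear receptor (-2.08). Ppara went the other way in SMTer, at 1.24 (limma, adjusted p = 0.0316). Ahr, the receptor that induces Cyp1a genes, did not pass in these 3 protocols, at -1.11, -0.54 and -0.35 in Tru70, SMTseq4 and SMTseq0.25. Those that rose in Tru70 were Nr1h3 (1.10), the oxysterol receptor that macrophages also carry, and Cebpb (1.19).

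Some members also differed between the mice, within each fraction. Xist, the transcript of the silenced X chromosome of females, held 0, 0.0296 and 119 CPM in the Tru70 inputs of mice 1 to 3, and Ddx3y, a Y-linked gene, held 44.0, 45.4 and 0.343 CPM. The labels give no sex. Mouse 3 was the highest in Xist and the lowest in Ddx3y in inputs and IPs of all 6 protocols, exchanged ones included. Of the members, 11 were listed for a known sex bias in mouse liver, and the list may not be complete.

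Cyp3a41a, a female-type enzyme, held 11.4, 2.93 and 117 CPM in the Tru70 inputs of mice 1 to 3, and 5.98, 1.75 and 57.6 CPM in those of SMTseq4. Mouse 3 was by far the highest, and it was so in the inputs and in the IPs of 6 of 6 protocols. Cyp3a44 and Cyp2b13, further female-type enzymes, held 82.3, 12.9 and 116 CPM and 40.6, 57.2 and 76.7 CPM. Mouse 3 was again highest in 6 of 6 protocols in both fractions, by 2.43 to 3.78 times the mean of the other mice for Cyp3a44 inputs and 1.51 to 3.597 times for Cyp2b13. Cyp3a16, a fetal and female-type enzyme, was at 0.0388, 0 and 12.6 CPM in the Tru70 inputs. Cyp3a41b, close in sequence to Cyp3a41a, was highest in mouse 3 in the inputs of 5 of 6 protocols and the IPs of 4. In the NEB inputs, the NEB IPs and the SMTseq0.25 IPs, it had no read in any mouse.

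Other listed genes showed the order weakly or not at all. Cyp2a4 and Cyp2b9, female-type enzymes, were highest in mouse 3 in 5 of 6 inputs each, but by only 1.10 to 1.26 and 1.04 to 1.21 times the mean of the other mice. In the IPs, Cyp2b9 was highest in mouse 3 in 6 of 6 protocols and Cyp2a4 in 2, with mouse 1 highest in Cyp2a4 in 3. Of the male-type genes, Cyp2d9, at 169, 144 and 122 CPM in the Tru70 inputs, was lowest in mouse 3 in 3 of 6 protocols. Cyp4a12a was lowest there in 5 of 6 inputs, with 4.54, 2.13 and 0 CPM in Tru70, and in NEB mice 1 and 3 were both at 0. Cyp4a12b was highest in mouse 3 in 2 inputs and had no read in any NEB or SMTseq0.25 input. Cyp7b1 was lowest in mouse 3 in 2 inputs and highest in 1.

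Of members outside this list, which may have a sex bias of their own, Cyp17a1, Cyp2b10, Cyp2e1 and Cyp7a1 were looked at. In the Cyp7a1 inputs, mouse 3 was highest in 0 and lowest in 0 of 6 protocols. It stood there at 0.97 to 1.19 times the mean of the other mice. In the Cyp7a1 IPs, mouse 3 was highest in 6 of 6. Cyp17a1 inputs of mouse 3 were 2.02 to 2.45 times the mean of the other mice over the 6 protocols. Cyp2b10, the phenobarbital-inducible target of CAR, ran the other way, with 314, 200 and 61.1 CPM in the Tru70 inputs and 124, 74.5 and 22.7 CPM in the IPs. Mouse 3 was lowest in Cyp2b10 in 6 of 6 protocols in both fractions, as it was in Cyp2e1. These genes also fell in IP, Cyp2b13, Cyp3a44 and Cyp17a1 in 5 of 6 protocols with counts, Cyp2b10 in 4, and Cyp2e1 and Cyp7a1 in 6. With 1 mouse against 2, no test of the mouse pattern was run, and sex cannot be told apart from anything else in which mouse 3 differed.

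**Figure D5:**
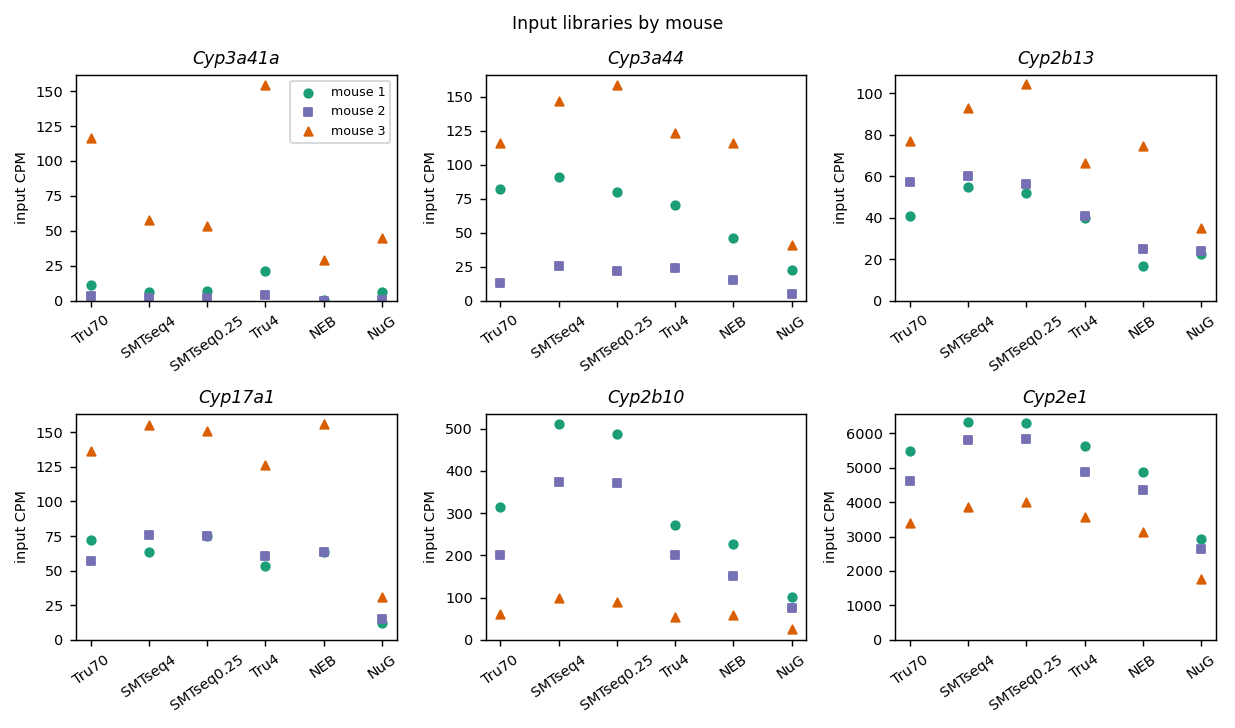
Input CPM of 6 P450 genes in mice 1 (circles), 2 (squares) and 3 (triangles) for each of 6 protocols. Mouse 3 is the highest in Cyp3a41a, Cyp3a44, Cyp2b13 and Cyp17a1 and the lowest in Cyp2b10 and Cyp2e1 in every protocol.

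The change of the members from input to IP differed between kits for few members by test. Against Tru70, 0 of 78 members passed in SMTseq4, SMTseq0.25, Tru4 and NuG (edgeR interaction, adjusted p under 0.05), where 0.21%, 0.683%, 0.0% and 0.135% of all 18582 genes passed, and 6, 4, 2 and 2 members had an unadjusted p under 0.05. In NEB 1 member passed, Cyp26b1, with 4.21% of all genes, and 10 had an unadjusted p under 0.05. With the mouse as a block the counts were 1, 1, 0, 3 and 1 for SMTseq4, SMTseq0.25, Tru4, NEB and NuG. The median difference of the members from Tru70 was -0.35 in SMTseq4, -0.36 in SMTseq0.25, -0.01 in Tru4, -0.0040 in NEB and 0.22 in NuG. These comparisons share the Tru70 libraries, and SMART-Seq v4 libraries were sequenced at another centre than the rest, so kit and centre cannot be told apart there.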

How the data were processed

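The members and lists were chosen with earlier results of these data known. Reads were trimmed by the authors and aligned to GRCm38 with TopHat, as the submitters' processing notes name it, and HTSeq exon counts and RPKM were deposited for each library. The deposited counts are whole numbers per Ensembl gene without normalization, and were not analysed by strand in the study, whose counting option for strand is not given in the sources used here. The deposited RPKM of the authors are relative to the whole gene span, introns included, so levels were compared between genes as CPM per kilobase of the longest transcript. The SMTer counts left 76.8% to 93.8% of reads on no feature, against at most 27.6% elsewhere, so the authors' RPKM were used for SMTer.

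Symbols came from GENCODE M21 and matched 47310 of 47729 identifiers. Counts were tested per protocol with edgeR 4.0.16 (TMM, filterByExpr, quasi-likelihood, no block) and SMTer with limma 3.58.1 on log2(RPKM + 1), for genes at 1 RPKM or more in at least 3 libraries. Such fold changes understate low genes. All p-values were adjusted over all genes tested by Benjamini-Hochberg, and an adjusted p under 0.05 passed. Differences from Tru70 came from 1 edgeR fit over the 6 protocols with counts. The SE of an edgeR change was its size divided by the square root of its F statistic, and is approximate. The fits of Tru70, NuG and SMTer were tested on simulated data. Those of the other protocols, the fit of differences from Tru70 and DESeq2 were not. Floors of 3 counts cover counting error only. Replicate numbers mark the same mouse in each fraction, and deviations of same-numbered libraries from their group means correlated between -0.03 and 0.45. Libraries of a group are separate mice.

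Genes were named by rule: leukocyte P450s with a read, the 12 hepatocyte P450s of highest Tru70 input RPKM, members higher in at least 3 protocols with counts, the 3 most and 3 least negative hepatocyte P450s of Tru70, listed bile acid, retinoid, vitamin D, steroid and sex-biased P450s, and set partners and markers. Cyp4f13, Cyp4f14, Cyp4f37, Cyp20a1, Cyp2b10, Cyp2c40, Cyp2c69, Fech, Nr1h3 and Cebpb were named after their values were seen. Alternatives were DESeq2, its size factors, library totals, no filter, fractions as labelled, a replicate block, each replicate left out and, for SMTer, edgeR on exon counts, a pseudocount of 0.1 and, added after seeing the data, equal library medians.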

Additional observations from a re-analysis of the deposited data

Results flagged for a closer look

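The change of Cyp26b1, a retinoic acid hydroxylase, differed between NEB and Tru70 by -9.89 on the log2 scale (edgeR interaction, adjusted p = 0.00833). NEB counted 0 reads of Cyp26b1 in all 3 IPs, with 0.269, 12.8 and 8.94 CPM in the inputs, and Tru70 held 2.33, 4.50 and 0.903 CPM in the inputs and 1.90, 5.20 and 0.417 CPM in the IPs. The size of the difference depends on the prior count for the NEB IPs and is no bound. The cause was not tested.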

How the results depend on the processing

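Counts of members that fell or rose stayed within 1.5 times the values given for DESeq2 size factors, no filter on low counts and the replicate block in the 6 protocols with counts. With fractions as labelled, 0 members fell and 0 rose in Tru4, NEB and NuG, and 0 fell in SMTer. With library totals only, 8 rose and 25 fell in NuG and 2 rose in SMTseq0.25. DESeq2 gave 1 member that rose in NEB. In SMTer, 9 fell with edgeR on exon counts, 0 with no filter on low RPKM, 36 with the replicate block and 35 with library medians set equal.

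Leaving out a replicate gave 1 to 2 members that rose in Tru70, 0 to 1 in SMTseq0.25 and 0 to 2 in NuG, and 13 to 25 that fell in NEB, where replicates 2 and 3 mattered most (13 and 14 without them), and 0 to 24 in SMTer (0 without replicate 1, 13 without replicate 3). Members whose change differed from that of Tru70 numbered 4 in NEB with fractions as labelled, and 1, 1, 3 and 1 in SMTseq4, SMTseq0.25, NEB and NuG with the replicate block, which moved no other count in the 6 protocols with counts by more than 1.5 times.

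The P450 share, as input minus IP, came to 1.02, 1.18, 1.11, 0.653, 0.951 and 0.172 percentage points in Tru70, SMTseq4, SMTseq0.25, Tru4, NEB and NuG when taken from RPKM, against 2.04, 2.87, 2.86, 1.92, 1.61 and 2.03 from counts, and 0.397 in SMTer from exon counts, against 0.628 from RPKM. With fractions as labelled it was 0.925 in Tru4, 0.761 in NEB, 1.06 in NuG and 0.276 in SMTer. Leaving out a replicate of SMTer gave 0.591 to 0.678.

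Signs turned for few named genes. With fractions as labelled Cyp8b1 stood at 0.084 in Tru4. With library totals only it stood at 0.98 in NuG, Cyp3a13 at 0.088, 0.10 and 1.01 in Tru70, Tru4 and NuG, and Ahr at 0.020 and 0.14 in SMTseq4 and SMTseq0.25. With the replicate block Cyp4f16 in NEB was -0.96 and Cyp4a12b in Tru70 -3.79, and leaving out a replicate gave -1.33 to 2.07 and -6.83 to 1.92, with the low ends without replicate 2. The cause of these turns was not tested.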
